A study of Mus musculus with 13 samples.

Results

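Collagen- and decorin-expressing mesenchymal cells of the mouse liver were taken from 13 droplet single-cell RNA libraries by a rule on raw molecule counts (unique molecular identifiers, UMIs). A barcode was selected when it held at least 1500 UMIs in all, at least 5 UMIs summed over Dcn, Col3a1, Col1a1, Col1a2 and Lrat, no UMI of Ptprc, Epcam or Pecam1, and at most 1 UMI of Stab2 and Clec4g together. The rule found 1456 cells among 95563 barcodes with at least 1500 UMIs (1.52%). The label under which the cells were chosen, stellate cells and fibroblasts, held only in part. Of 9 clusters, 1 was named by stellate cell markers, 1 by portal and capsular fibroblast markers and 1 by mesothelial markers, and 6 stayed unnamed. Stellate genes were also present, at lower levels, in several unnamed clusters.

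Male C57BL/6J mice of 6 to 12 weeks received chow with 0.1% DDC (3,5-diethoxycarbonyl-1,4-dihydrocollidine), which injures bile ducts and leads to cholestasis and fibrosis around them. The steady state group was untreated (D0), DDC onset covered days 3 and 5 of the diet (D3, D5), DDC progression covered days 9, 19 and 25 (D9, D19, D25), and the STOP library came from mice given the diet for 18 days and then 7 days of recovery. At each of the 6 time points 1 library was made by isolation protocol A and 1 by protocol B, and STOP was made by protocol B. The sorts set which cells could be seen. For protocol A the list named live single cells, retinoid-autofluorescent cells, cells positive for Epcam, for Pdpn, for Lyve-1 or for Cd45, and Cd31+Lyve-1- cells. Whether the live single cells were a group of their own or a gate was not stated. Protocol B took a hepatic stellate cell preparation with Cd45+Itgax+Cd64-, Epcam+ and Cd3e+Lyve-1- cells. The label of the D19 B library gives day 18. How many mice entered a library was not given in the sources used here, so the spread between libraries may be technical in part. Fewer mesenchymal cells in a tissue and fewer recovered by a sort cannot be told apart.

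Hepatic stellate cells lie between hepatocytes and the sinusoidal endothelium, store vitamin A as retinyl esters and are a main source of scar-forming myofibroblasts when the liver is injured. Portal fibroblasts surround the bile ducts and portal vessels, and a fibroblast layer together with mesothelial cells covers the organ as the liver capsule. All of them secrete decorin and fibrillar collagens, and on activation they take up contractile proteins such as alpha smooth muscle actin (Acta2) and add basement membrane and fibrillar collagen to the tissue.

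The share of selected cells ranged from 0.0143% to 5.86% of the barcodes of a library. D0 A held 253 selected cells (3.88%, exact 95% binomial interval 3.42 to 4.37%), whereas D0 B held 1 (0.0143%, 0.000362 to 0.0796%). In the onset libraries 3 cells were found in D3 A, 7 in D3 B, 4 in D5 A and 31 in D5 B. Progression libraries held 175 cells in D9 A, 15 in D9 B, 110 in D19 A, 40 in D19 B, 79 in D25 A and 350 in D25 B. STOP held 388 cells (4.58%, 4.14 to 5.04%). The highest shares, in D0 A, D25 B and STOP, came from both protocols, and the libraries of 1 time point made by different protocols differed by more than their intervals at D0, D3, D5, D9, D19 and D25. These shares follow the sort and are given with no test, and the intervals cover counting error only.

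**Figure D1:**
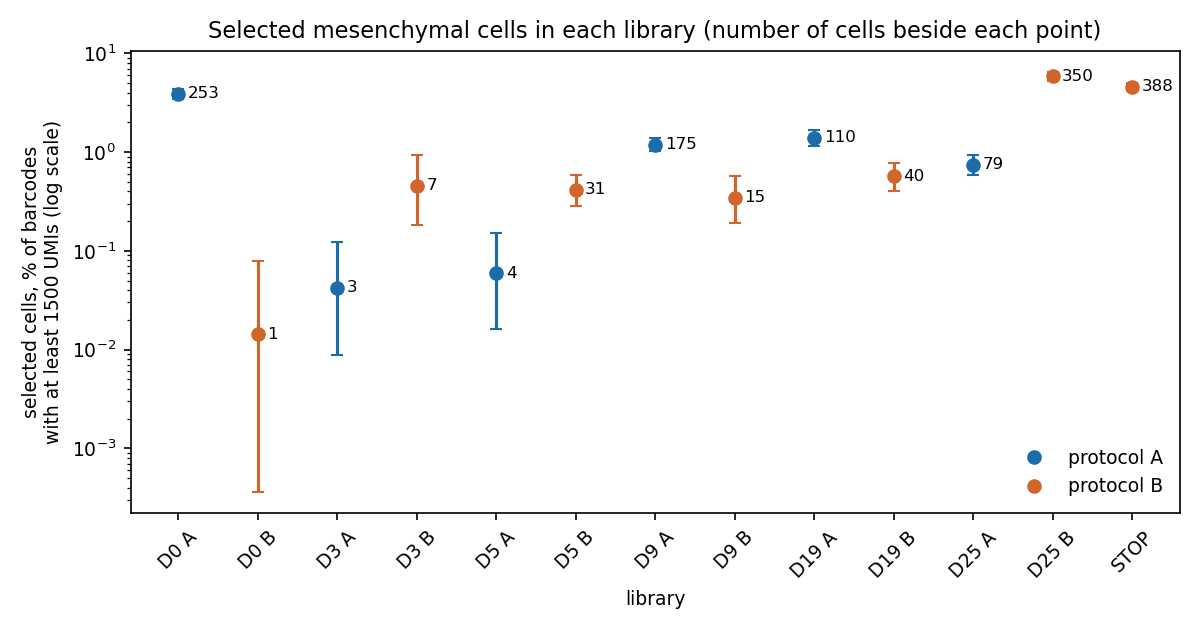
Selected cells as a percentage of barcodes with at least 1500 UMIs in each of the 13 libraries, on a log scale, with exact 95% binomial intervals and the number of selected cells beside each point. D0 A (3.88%), D25 B (5.86%) and STOP (4.58%) stand above the other 10 libraries, and D0 B holds 1 cell.

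The median selected cell held 295 UMIs of the 5 rule genes, 45 cells held fewer than 10, 14 cells lay at the threshold of 5, and 31 otherwise eligible cells just below it held 4. Of 2629 barcodes with at least 5 marker UMIs, 1173 were lost to the other conditions: Pecam1 was seen in 765 of them, more than 1 UMI of Stab2 and Clec4g in 432 and Epcam in 177, Ptprc lay between the counts of Pecam1 and Stab2 with Clec4g, and some barcodes were counted under several genes. Lrat, the enzyme that esterifies retinol for storage, was seen in only 76 selected cells (5.22%), 60 of them in STOP. In T cell barcodes, which should lack these genes (at least 2 UMIs of Cd3e and Cd3d and fewer than 5 marker UMIs), Dcn lay between 0 and 43.7 UMIs per 1000000 UMIs (CPM). The pooled Dcn level of the selected cells was 15050 CPM. CPM here are summed over the cells named, without the features CT010467.1 and Mir6236, which took 0.298% (STOP) to 17.9% (D3 A) and 0 to 1.53% of the selected cells' UMIs.

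All 13 libraries held between 29307190 and 108602421 UMIs in all barcodes. Median UMIs per selected cell ran from 5842 in D9 A to 12558 in STOP among the 9 libraries with at least 10 selected cells. The fits and the selected cells' levels by library are limited to these 9. Cell counts, clusters, pooled levels, T cell levels and shares used all 13 libraries. No barcode of a selected cell occurred in more than 1 library. RNA of other cell types remained: 482 of 1456 cells (33.1%) held fewer than 3 UMIs of each of the immune, endothelial and biliary lists. The summed level of 12 macrophage and monocyte genes was 177 (STOP) to 677 CPM (D9 A) against 7918 CPM in all other barcodes, that of 12 endothelial genes 167 to 855 CPM against 6364 CPM, and that of 10 hepatocyte genes 336 to 975 CPM against 1438 CPM. The 8 biliary genes summed to 275 to 2931 CPM, and the B cell gene Ms4a1 was at 0 in all 9 libraries. The biliary list was no clean sign of other cell types, since it holds keratins and Spp1, leading genes of clusters described below. It summed to 5604 CPM in cluster 4, 3410 CPM in cluster 5 and 64.2 to 1458 CPM in the other clusters. The 8 T and NK genes lay between 4.87 and 288 CPM, the 6 neutrophil genes between 0 and 209 CPM, the 6 dendritic cell genes between 0 and 10.2 CPM and the 4 Schwann cell genes between 0 and 19.5 CPM.

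Compared with all other barcodes, the selected cells were set apart by matrix genes beyond those of the rule, which is a description and no test because the rule picked the cells. Besides Col1a1, Col3a1 and Col1a2, the 20 genes with the highest ratio were Mmp3, Fbn2, Mfap4, Fbln1, Lum, Cpxm1, Sparcl1, Sfrp1, Clec3b, Abca8a, Col6a2, Mfap2, Islr, Col6a1, Mfap5, Hand2os1 and Mmp2, with ratios between 103 (Mmp2) and 199 (Mmp3). Mmp3 encodes stromelysin 1, a matrix protease, and stood at 203 CPM pooled against 1.02 CPM in other barcodes, but ranged from 0 to 824 CPM over libraries. Lum, the small leucine-rich proteoglycan lumican, stood at 1866 against 14.7 CPM. Col6a1, a chain of the microfibrillar collagen VI, varied least over libraries among these examples, between 575 and 1061 CPM.

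The 9 clusters differed in their defining genes, and 3 could be named from the marker lists. Cluster 1 (301 cells) was fibroblast-like, with 14 of 20 portal and capsular fibroblast markers raised in it. Its leading genes included the markers Pi16, Mfap5, Gsn and Clec3b, and Apod, Scara5 and Pcolce2 from outside that list. Apod varied widely over libraries. In all selected cells it stood at 68.4 CPM in D0 A, 731 CPM in D9 A, 912 CPM in D19 A and 4.75 CPM in D25 B. Pi16, a marker of adventitial fibroblasts, stood at 1348 CPM in cluster 1 and 248 CPM in cluster 7, and between 0.780 and 18.2 CPM in the other clusters. Cluster 3 (214 cells) was stellate-like with 16 of 21 stellate markers, among them the extracellular glycoprotein reelin (Reln, 1426 CPM), the collectin Colec11 (3876 CPM), the growth factors Hgf (899 CPM) and Rspo3 (769 CPM) and the pericyte gene Rgs5 (2394 CPM). Cluster 5 (174 cells) was mesothelial-like with all 8 mesothelial markers. It held the surface glycoprotein mesothelin (Msln) at 3514 CPM and Upk3b at 2019 CPM, beside keratins (Krt19, 1190 CPM), complement C3 (14300 CPM) and Igfbp5 (11350 CPM), and only 261 CPM of Col1a1.

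The other 6 clusters stayed unnamed, though stellate genes were not limited to cluster 3. The summed stellate list stood at 25970 CPM in cluster 3. It was at 10640, 7466, 10850 and 8837 CPM in clusters 2, 4, 6 and 9, and at 1345 to 3990 CPM in the others. By more stellate than portal fibroblast UMIs and no mesothelial UMI, 626 selected cells counted as stellate-list cells. Cluster 2 (223 cells) was led by Nrep, Fhl2, Itga8 and Gucy1a1 and held Acta2 at 1273 CPM. Cluster 4 (208 cells) was led by Spp1, Il11, Timp1 and Tnc and had the highest collagen levels, with Col1a1 at 16380 CPM and Col3a1 at 20470 CPM. Cluster 7 (105 cells) was led by Wif1, Dkk2, Ntrk2 and Ptn, had the portal fibroblast marker Thy1 at 440 CPM against 1.34 CPM in cluster 3, and held the protease gene Mmp2 at 1254 CPM. Cluster 8 (68 cells) was led by Enpp2, Cxcl13 and Osr1 and had 7 of 8 mesothelial markers raised, with Upk3b at 1356 CPM and Msln at 372 CPM, but none of them among its 10 leading genes. Cluster 9 (40 cells) was led by the division genes Cenpf, Top2a and Mki67. Cluster 6 (123 cells) had the lowest depth, with a median of 2630 UMIs, and was led by Fabp1, Dnase1l3, C1qb and Fabp4, genes of hepatocytes, endothelium and macrophages. It also held the smooth muscle myosin Myh11 at 896 CPM and Acta2 at 3152 CPM, so genes of several cell types met in these barcodes. No doublet caller was run.

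**Figure D2:**
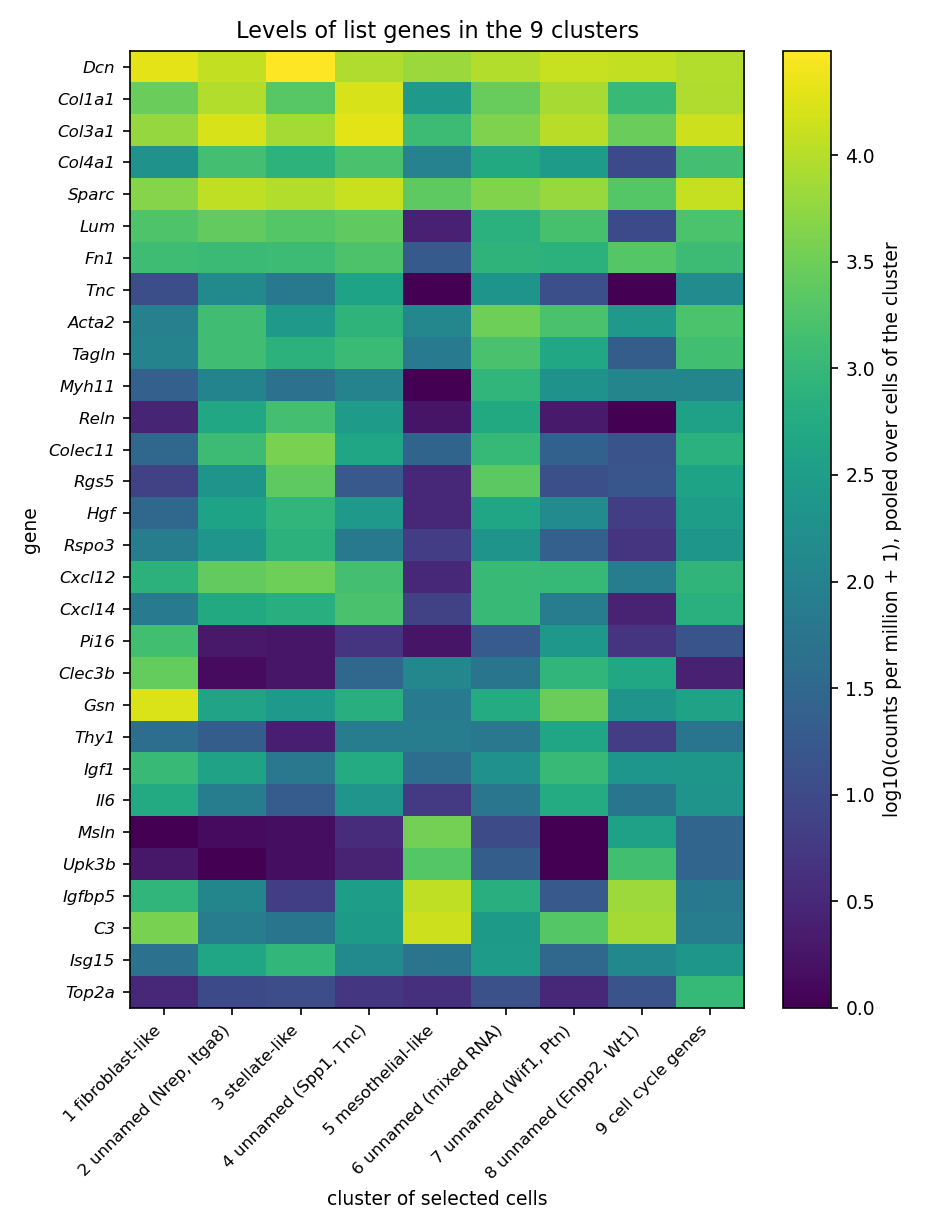
Levels of 30 list genes (rows) in the 9 clusters (columns), as log10 of CPM plus 1, pooled over the cells of each cluster. Dcn is high in every cluster, Reln, Colec11 and Rgs5 are highest in cluster 3 (Rgs5 almost as high in cluster 6), Pi16, Clec3b and Gsn in cluster 1, Msln, Upk3b and C3 in cluster 5, and Col1a1 in cluster 4.

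Roles in matrix building were divided over the clusters, again as a description, since the clustering used these cells. Collagen VI chain Col6a3 ran from 12.5 CPM in cluster 5 to 2974 CPM in cluster 4, and the basement membrane chain Col4a1 from 9.21 CPM in cluster 8 to 1591 CPM in cluster 4. Decorin itself, a proteoglycan that binds collagen fibrils, was highest in cluster 3 (30930 CPM) and lowest in cluster 5 (6570 CPM). The collagen chaperone Serpinh1 lay between 592 CPM (cluster 5) and 2237 CPM (cluster 2), a narrower range than that of the collagen chains. The growth factor receptors also split, with Pdgfrb at 494, 501 and 502 CPM in clusters 2, 3 and 4 and 3.12 CPM in cluster 5, and Pdgfra at 805 CPM in cluster 7 and 4.68 CPM in cluster 5. Among secreted signals, the chemokine Cxcl12 peaked in cluster 3 (3109 CPM), the cytokine Il6 in cluster 7 (567 CPM) and the Wnt agonist Rspo1 in cluster 5 (745 CPM).

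Libraries drew on different clusters, which bears on every comparison between them. Cluster 1 made up 48.2% of the selected cells in D0 A, 44.0% in D9 A and 47.3% in D19 A, but 1.03% in STOP. Mesothelial-like cells made up 72.5% of D19 B, 60% of D9 B and 46.8% of D25 A, and 5.93% of D0 A. In D25 B 40.3% of cells were in cluster 4, and in STOP 43.0% were in cluster 2 and 30.2% in cluster 3. Cluster 3 held 23 cells in D0 A, 11 in D5 B, 15 in D19 A, 40 in D25 B and 117 in STOP, 4 in D9 A, 1 in D25 A and none in D9 B and D19 B. Clusters 2 and 4 together held 1 cell in D0 A. Because the clusters were built from the same expression values, genes that changed with the diet could also move cells between clusters, so these shares are not a count of cell types.

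**Figure D3:**
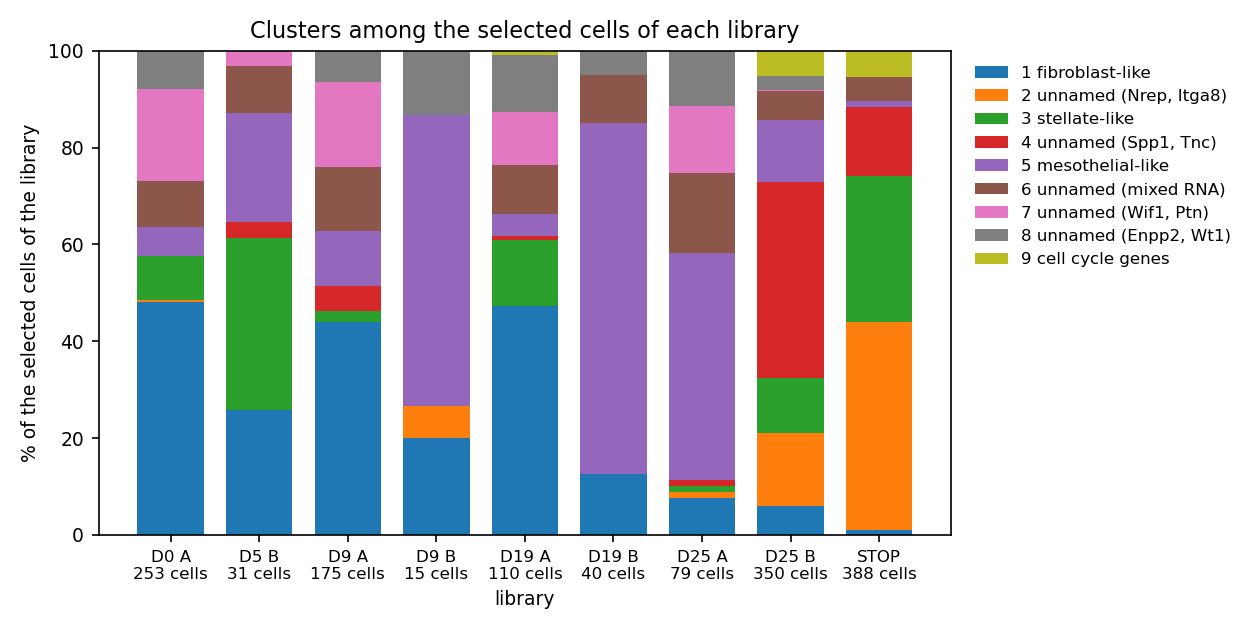
Percentage of the selected cells of each of the 9 libraries with at least 10 such cells that fell into each cluster (stacked bars, adding up to 100%). Cluster 1 fills nearly equal parts of D0 A (48.2%), D9 A (44.0%) and D19 A (47.3%), mesothelial-like cells fill 72.5% of D19 B, and clusters 2 and 4 lie mostly in D25 B and STOP.

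The first comparison asked how the selected cells of mice on the diet differed from those of untreated mice. UMIs were summed per library and fitted with edgeR over 8 atlas libraries, with the stage and the protocol as terms. Steady state rested on D0 A alone, which was taken to vary like the other groups. The diet side was the mean of the onset and the progression estimates, and onset rested on D5 B alone. No gene passed an adjusted p of 0.05 (0 of 10475, background 0%). At an unadjusted p under 0.05 there were 323 genes, and DESeq2 also called 0 genes. With so few libraries the 0 does not show that genes did not differ. With the cells that held RNA of other lineages left out, edgeR called 12 genes, in a fit that also lost 3 libraries and tested 4271 genes with 1 residual degree of freedom in place of 4. The cells left out included those with 3 or more UMIs of the biliary list, so the mix of clusters could change too. The genes with the smallest p did not pass. They were H4c4, Cd52, Tbc1d2b, Hddc2 and Trem2 on the higher side, and Serpina1e, Fbxl18, Rhbdf1, Ifit3b and Parp6 on the lower side. Serpina1e stood at 84.8 CPM in D0 A and 0 to 1.02 CPM in the diet libraries. The part of RNA from other cell types in these genes was not tested. For some of them single libraries went against the side given. Parp6 stood at 14.6 CPM in D0 A, 0 in D5 B and 29.5 CPM in D9 B. Rhbdf1 stood at 57.3 CPM in D0 A and 59.0 CPM in D9 B, and Tbc1d2b and Trem2 were at 0 in D9 B. H4c4, a histone gene, stood at 11.7 CPM in D0 A and between 31.7 and 109 CPM in the 7 diet libraries (log2 difference 3.12 ± 0.585 SE, edgeR unadjusted p = 0.000431, adjusted p = 1.0).

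Gene lists are therefore described by their direction. Of 12 contractile genes, 10 were higher under DDC with a median log2 difference of 0.91, where the median of all 10475 genes was -0.07, and 0 were called. Acta2 stood at 188 CPM in D0 A, 580 CPM in D5 B, 332 CPM in D9 A, 125 CPM in D9 B, 287 CPM in D19 A, 107 CPM in D19 B, 2140 CPM in D25 A and 949 CPM in D25 B. Groups thus overlapped, since D9 B and D19 B, the libraries with the largest mesothelial-like share, lay below D0 A. Of 21 stellate genes 7 were higher (median -0.19), of 18 portal fibroblast genes 7 (median -0.24), of 17 genes of the TGF-beta axis 4 (median -0.34) and of 14 collagens outside the rule 8 (median 0.19). Of 15 collagen processing genes 3 were higher (median -0.36), of 11 complement genes 2 (median -0.50), of 13 interferon-stimulated genes 4 (median -0.39) and of 14 tested chemokines and cytokines 8 (median 0.35). Of 21 matrix glycoproteins 9 were higher (median -0.13), of 13 matrix proteases and inhibitors 7 (median 0.00), of 3 PDGF genes 1 (median -0.25), of 9 retinoid genes 4 (median -0.04) and of 17 niche growth factors 9 (median 0.14). Among 6 IGF-binding proteins 2 were higher (median -0.28), among 11 cytokine receptors 5 (median -0.05), among 11 adhesion genes 6 (median 0.02), among 19 immediate early and heat shock genes 6 (median -0.32), among 9 cell cycle genes 2 (median -0.55), among 4 smooth muscle genes 2 (median 0.06) and among 8 mesothelial genes 6 (median 0.22). RNA of the lists for other cell types moved too in the fit, but the biliary list was also high in clusters 4 and 5 of the selected cells. All 6 macrophage genes tested were higher (median 1.28) and 4 of 6 biliary genes (median 0.63), with 0 called. All 5 hepatocyte genes (median -2.67) and both neutrophil genes (median -2.33) were lower with 0 called, but not in every library. The summed hepatocyte list stood at 879 CPM in D0 A, 336 CPM in D5 B, 951 CPM in D9 B, 975 CPM in D19 A and 374 to 872 CPM elsewhere. The neutrophil list stood at 76.0 CPM in D0 A and at 0 in D5 B, D9 B and D19 B. It was at 29.9 CPM in D25 B and 81.6 to 209 CPM in D9 A, D19 A and D25 A. The part of such RNA in the other values was not tested.

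The second comparison asked what differed between progression and onset, where onset rested on D5 B with 31 cells. Again 0 of 10475 genes passed in edgeR (background 0%), with 336 at an unadjusted p under 0.05, and DESeq2 called 0. The median of all genes was 0.10 on the log2 scale. The smallest p belonged to Guf1, Rbis, Zfp362, Atad1 and Wwp2 on the higher side and Smoc1, Pappa, Fam167b, Gpr182 and Has1 on the lower side, and none of them passed. Fam167b turned to the higher side in some alternative fits, which are given at the end. Has1, a hyaluronan synthase, stood at 275 CPM in D5 B, 318 CPM in D9 A, 44.3 CPM in D9 B, 285 CPM in D19 A, 39.6 CPM in D19 B, 113 CPM in D25 A and 24.0 CPM in D25 B. Its levels fell apart by protocol, with every protocol A library of progression above every protocol B library. All 9 cell cycle genes were higher (median 2.24) and 12 of 14 collagens (median 0.53), while 4 of 21 stellate genes were higher (median -0.80), with 0 called in each list. D25 B stood apart in both lists. The summed level of the cell cycle genes was 131 CPM in D5 B, 99.1 to 193 CPM in the other progression libraries and 619 CPM in D25 B, and that of the collagens was 6094 CPM in D5 B, 4557 to 6200 CPM and 11890 CPM in D25 B. All 8 mesothelial genes were higher as well (median 1.07, 0 called). Of 5 hepatocyte genes 4 were higher (median 5.80) and both neutrophil genes (median 6.45), with 0 called. The onset side of these medians was D5 B alone. The summed hepatocyte list stood at 336 CPM in D5 B and 374 to 975 CPM in the progression libraries. The neutrophil list was at 0 in D5 B, D9 B and D19 B and at 29.9 to 209 CPM in the other progression libraries. The biliary list was also high in clusters 4 and 5 of the selected cells, whose shares differed between libraries. Of 6 biliary genes 5 were higher (median 0.72) and of 6 endothelial genes 1 (median -1.40), with 0 called. The part of such RNA in the other values was not tested. The same smaller fit without cells that held RNA of other lineages called 17 genes here.

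Since the mixture of clusters differed so much, diet and steady state were also compared within clusters that had at least 10 cells in D0 A, an analysis chosen after the data were seen. D0 A was the only steady state library, and the protocol term left the estimate to protocol A libraries, with 1 residual degree of freedom in clusters 1 and 3 and 2 in cluster 5. The estimate thus compared D0 A with D9 A and D19 A in cluster 1, with D9 A and D25 A in cluster 5, and with D19 A alone in cluster 3, where 1 library stood on each side and the spread came from D5 B and D25 B, of different diet days. Calls in cluster 3 are therefore given as counts and its genes as levels, with no p. In these fits 81 of 7424 genes were called in cluster 1 (1.09%), 64 of 3642 in cluster 3 (1.76%) and 57 of 4482 in cluster 5 (1.27%). In clusters 7 and 8 edgeR called 0 of 4484 and 0 of 3182 genes, with 261 and 173 at an unadjusted p under 0.05. DESeq2 called 4, 10 and 5 genes in clusters 1, 3 and 5, but in cluster 3 it gave no adjusted p for 3036 of the 3642 genes. Without the protocol term edgeR called 1, 23 and 1. In cluster 3 the count was 13 without CT010467.1 and Mir6236. It was 103 without D19 A, a fit that also lost the protocol term, since D0 A was then the only protocol A library and diet and protocol cannot be told apart in it. In cluster 5 it was 14 without D25 A, 32 without D9 A, 110 without D19 B and 115 without D25 B. Values by library are given for the genes described at length. Mitochondrial RNA, looked at after the data were seen, was called in these fits too: mt-Co3 was lower in clusters 1, 3 and 5, mt-Atp6 lower and mt-Rnr1 higher in clusters 1 and 5, and mt-Rnr2 higher in cluster 5. In cluster 1, mt-Co3 stood at 248 CPM in D0 A, 43.8 CPM in D9 A, 25.2 CPM in D19 A and 367 CPM in D25 B. CT010467.1 and Mir6236 were called higher in clusters 1 and 5. The part of RNA quality in the other calls was not tested. The 3 comparisons share the D0 A library.

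In fibroblast-like cells of cluster 1, Tagln, Acta2 and Col4a1 were higher in every diet library than in D0 A. Tagln, the actin-binding protein transgelin, stood at 5.17 CPM in D0 A (122 cells), 122 CPM in D9 A (77 cells), 169 CPM in D19 A (52 cells) and 149 CPM in D25 B (21 cells), and its log2 difference was 4.77 ± 0.635 (SE). Acta2 stood at 22.0, 73.0, 219 and 89.2 CPM in the same order. Both rose in edgeR, Tagln with an adjusted p of 2.44e-10 and Acta2 with 2.99e-05, and 10 of 10 tested contractile genes were higher, of which these 2 were called against 0.525% of all genes called higher. Col4a1, a chain of collagen IV, stood at 29.7 CPM in D0 A, 272 CPM in D9 A, 306 CPM in D19 A and 282 CPM in D25 B (edgeR adjusted p = 3.64e-07, DESeq2 adjusted p = 0.00975). Tagln passed in DESeq2 too (adjusted p = 0.0145), whereas Acta2 did not (adjusted p = 1.0). Without the protocol term Tagln still passed in edgeR (adjusted p = 0.0324), and Acta2 (adjusted p = 0.446) and Col4a1 (adjusted p = 0.113) did not. Of 13 collagens outside the rule 5 were higher with a median log2 difference of -0.41, and Col4a1 was the 1 called. Col1a1, a gene of the rule and so a description, stood at 2844 CPM in D0 A, 2167 CPM in D9 A, 2075 CPM in D19 A and 5249 CPM in D25 B.

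Cxcl14, a chemokine of stromal cells, stood at 20.7 CPM in D0 A, 105 CPM in D9 A, 91.2 CPM in D19 A and 208 CPM in D25 B. Gas6, a ligand of the TAM receptor tyrosine kinases that take part in clearing dead cells, stood at 69.8, 246, 176 and 104 CPM in the same order. Cxcl14 and Gas6 rose in edgeR with adjusted p of 0.0026 and 0.0339 and passed in neither DESeq2 nor the fit without the protocol term. Hmox1, heme oxygenase 1, was chosen after its values were seen and stood at 49.1 CPM in D0 A, 324 CPM in D9 A, 196 CPM in D19 A and 233 CPM in D25 B. The B cell chemokine Cxcl13, chosen likewise, stood at 43.9, 547 and 452 CPM in D0 A, D9 A and D19 A but 4.96 CPM in D25 B, so D25 B lay below D0 A (edgeR adjusted p = 3.51e-08, without the protocol term 0.644, DESeq2 adjusted p = 0.000594). The insulin-like growth factor binding protein Igfbp3 was lower, at 407 CPM in D0 A, 146 CPM in D9 A, 48.5 CPM in D19 A and 149 CPM in D25 B (edgeR adjusted p = 0.00019, without the protocol term 0.446, DESeq2 adjusted p = 1.0). Neutrophil genes moved with these libraries: S100a9 stood at 10.3 CPM in D0 A, 139 CPM in D9 A, 122 CPM in D19 A and 9.91 CPM in D25 B, and both tested neutrophil genes (S100a8, S100a9) were called, though not without the protocol term. Of 6 macrophage genes tested in cluster 1 all 6 were higher and 0 were called. The part of such RNA in the other results was not tested.

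In stellate-like cells of cluster 3, collagen genes of the rule stood low in D0 A and high in every other library. Col1a1 was at 332 CPM in D0 A (23 cells), 3044 CPM in D5 B (11 cells), 3581 CPM in D19 A (15 cells), 2626 CPM in D25 B (40 cells) and 1897 CPM in STOP (117 cells). Col3a1 stood at 1508, 7689, 8373, 7051 and 8279 CPM in the same order. Dcn did not share this pattern, with 27860 CPM in D0 A and between 28780 and 39730 CPM elsewhere. Since Col1a1 and Col3a1 helped to choose the cells, these levels are a description with no test. The calls of other genes in cluster 3 set D0 A against D19 A alone, so they are counts and no test of the diet. Col4a1 was no gene of the rule and stood at 118 CPM in D0 A, 548 CPM in D5 B, 795 CPM in D19 A, 555 CPM in D25 B and 950 CPM in STOP, so D0 A was the lowest. Of 11 collagens outside the rule 10 were higher and 2 were called (Col4a1 and Col15a1), where 0.659% of all genes were called higher. Higher calls in cluster 3 numbered 24, against 2 without the protocol term and 4 without CT010467.1 and Mir6236, and neither Col4a1 nor Col15a1 passed in these fits. Col15a1, a collagen of basement membrane zones, had no UMI in D0 A and none in D5 B, and stood at 228 CPM in D19 A, 106 CPM in D25 B and 30.9 CPM in STOP, so D5 B did not share the difference. Lyz2, a macrophage gene, was called as well, at 7.90 CPM in D0 A, 89.5 CPM in D5 B, 242 CPM in D19 A, 32.2 CPM in D25 B and 16.5 CPM in STOP, and the part of such RNA in the other values was not tested.

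Acta2, the usual marker of activated stellate cells, had no UMI in the stellate-like cells of D0 A, against a floor of 3 counts at 23.7 CPM. It was at 1399 CPM in D5 B, at least 59.1-fold above that floor, at 177 CPM in D25 B (at least 7.48-fold), at 62.2 CPM in D19 A (at least 2.63-fold) and at 285 CPM in STOP (at least 12.0-fold). D5 B thus stood apart from the later libraries, on 125 UMIs of 11 cells, and Acta2 was not called. The protease inhibitor gene Timp1 likewise had no UMI in D0 A and stood at 56.0 CPM in D5 B, 145 CPM in D19 A, 41.4 CPM in D25 B and 122 CPM in STOP, at least 1.75- to 6.13-fold above the floor. Mt1, a metallothionein that binds zinc and copper, was chosen after its values were seen and stood at 711 CPM in D0 A, 2630 CPM in D5 B, 5268 CPM in D19 A, 6099 CPM in D25 B and 1902 CPM in STOP. T cells of these libraries held Mt1 at 281 CPM in D0 A, 306 CPM in D5 B, 1130 CPM in D19 A, 305 CPM in D25 B and 274 CPM in STOP. S100a6, a calcium-binding protein chosen in the same way, was at 15.8 CPM in D0 A and 1037 CPM in D19 A, with 470 CPM in D5 B, 214 CPM in D25 B and 118 CPM in STOP.

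Stellate markers are given as levels only, since the cluster was named by them and some, such as Vipr1, helped to form it. Colec11 and Hgf are also in lists compared between groups and were left out of the clustering. Vipr1, a receptor for vasoactive intestinal peptide and a defining gene of cluster 3, stood at 1334 CPM in D0 A, 179 CPM in D5 B, 173 CPM in D19 A, 343 CPM in D25 B and 308 CPM in STOP. Reln was highest in D0 A (2645 CPM) and lowest in STOP (1213 CPM). Colec11 was at 2795 CPM in D0 A and 4275 CPM in STOP with 1724 CPM in D5 B as the lowest, and Hgf stayed between 704 CPM in STOP and 1261 CPM in D25 B.

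Immediate early and heat shock genes are known to respond to tissue digestion and sorting as well as to stress in the animal. Some of them were lower in diet libraries than in D0 A in all 3 named clusters. In cluster 3 the fit set D0 A against D19 A alone, 1 library on each side. Its calls are therefore a count and no test of the diet, and so is the percentage of all genes beside them. In cluster 3, 7 of 19 were called lower (Fos, Egr1, Atf3, Hspa1a, Hspa1b, Hsp90aa1 and Dnajb1), in cluster 1, 5 of 19 (Hspa1a, Hspa1b, Hspa8, Dnajb1 and Hsph1) and in cluster 5, 3 of 19 (Hspa1a, Hspa1b and Dnajb1), where 1.1%, 0.566% and 0.446% of all genes were called lower. None of the 5 genes of cluster 1 passed in DESeq2, and in cluster 5 Hspa1a did (adjusted p = 0.00143) while Hspa1b and Dnajb1 did not (adjusted p = 1.0). Without the protocol term edgeR called none of the 5 in cluster 1 and, of the 3 in cluster 5, Hspa1a alone (adjusted p = 0.0418). Egr1, an immediate early transcription factor, stood in cluster 3 at 7406 CPM in D0 A, 660 CPM in D5 B, 477 CPM in D19 A, 1491 CPM in D25 B and 913 CPM in STOP. Hspa1b, an inducible Hsp70, stood at 1731 CPM in D0 A and 49.6 to 282 CPM in the diet libraries of cluster 1. In cluster 3 it stood at 2487 CPM in D0 A and 6.91 to 66.7 CPM elsewhere. T cells of D0 A held Hspa1b at 1927 CPM, against 33.3 to 673 CPM in T cells of the other 12 libraries, so the difference was not limited to mesenchymal cells. T cells of D0 B, untreated as well but of protocol B, held it at 173 CPM, within the range of the diet libraries. D0 A cells of cluster 3 also held Fcgr2b and Dnase1l3, genes of sinusoidal endothelium, at 213 and 379 CPM, against 0 to 7.18 CPM and 0 to 33.6 CPM in the other libraries.

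In mesothelial-like cells of cluster 5, edgeR called 37 genes higher with the protocol term and 0 without it, so each rise named here was lost without that term, as were the calls of Serpinh1 and Eln. Acta2 stood at 14.4 CPM in D0 A (15 cells), 389 CPM in D9 A (20 cells), 65.9 CPM in D19 B (29 cells), 194 CPM in D25 A (37 cells) and 76.1 CPM in D25 B (45 cells), and rose in edgeR (adjusted p = 4.23e-06) but not in DESeq2 (adjusted p = 0.281), where 0.826% of all genes were called higher. Gas6 stood at 101 CPM in D0 A, 374 CPM in D9 A, 868 CPM in D19 B, 417 CPM in D25 A and 271 CPM in D25 B. The collagen chain Col4a2 stood at 7.18 CPM in D0 A, on 1 UMI, and at 67.4, 154, 119 and 102 CPM in the diet libraries in the same order. The adhesion receptor Vcam1 also stood at 7.18 CPM in D0 A on 1 UMI, and at 59.9, 209, 99.6 and 195 CPM in the diet libraries. Gas6, Col4a2 and Vcam1 rose in edgeR (adjusted p of 0.012, 0.0244 and 0.0425) but not in DESeq2 (adjusted p = 1.0 for each). Serpinh1, the collagen chaperone, stood at 984 CPM in D0 A and at 502, 473, 218 and 609 CPM in the diet libraries (edgeR adjusted p = 0.0244, DESeq2 adjusted p = 1.0). Elastin (Eln) stood at 675 CPM in D0 A and at 307, 236, 180 and 355 CPM in the diet libraries (edgeR adjusted p = 0.0262, DESeq2 adjusted p = 1.0). Lyz2, a macrophage gene, had no UMI in D0 A and 65.9 to 152 CPM in the diet libraries, and Alb, a hepatocyte gene, was at 187 CPM in D0 A and 11.3 to 29.9 CPM elsewhere.

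**Figure D4:**
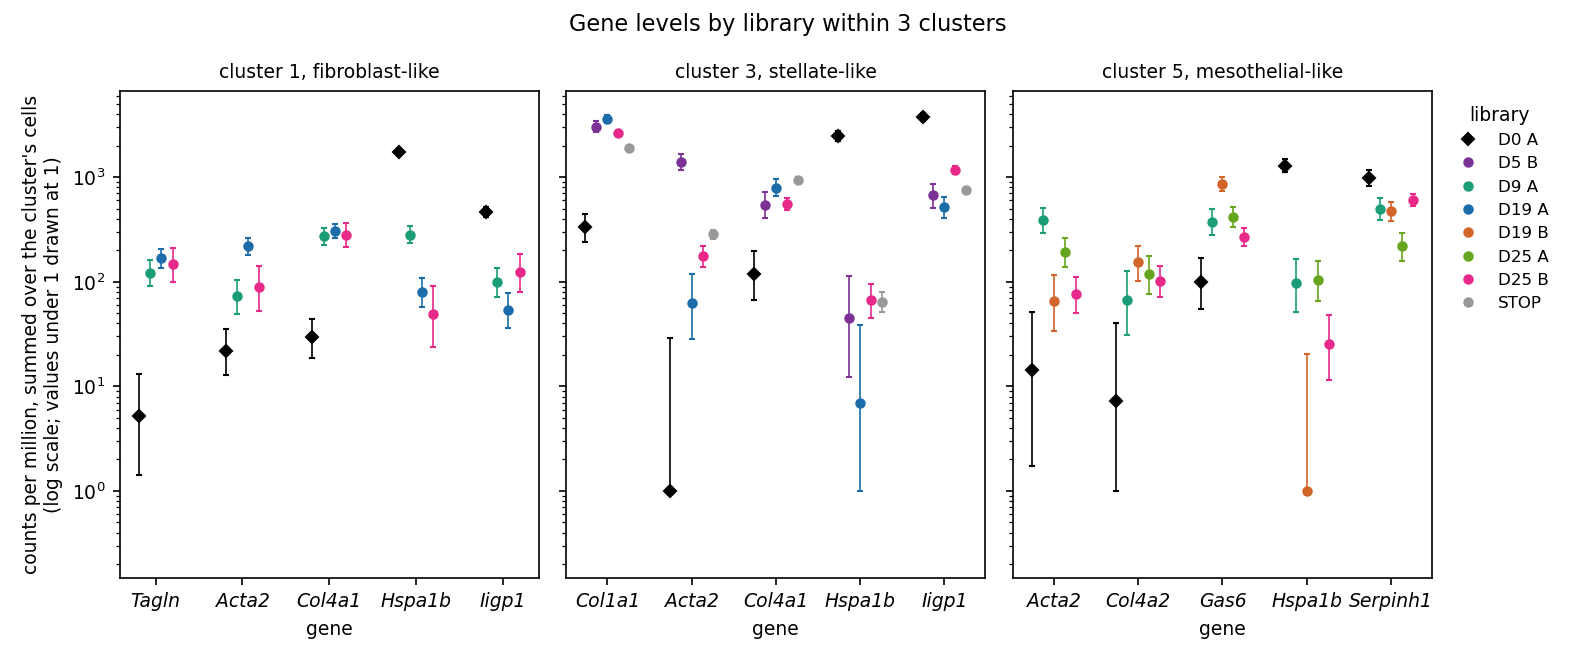
CPM (log scale) of 5 genes in each of clusters 1, 3 and 5, by library, with exact 95% Poisson intervals (values under 1 drawn at 1). The D0 A diamonds lie below every other library for Tagln, Acta2, Col4a1, Col4a2, Gas6 and Col1a1, and above them for Hspa1b, Iigp1 and Serpinh1.

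The last comparison asked what the cells looked like after 7 days without DDC. The planned reference was D19 B, the closest library by day and protocol, with 1 library on each side and so no test, and values are given with exact Poisson intervals that cover counting error only. Of 1099 genes with at least 200 CPM in either library, 843 had intervals that did not overlap (76.7%), 511 higher (46.5%) and 332 lower (30.2%) in STOP. D19 B held 40 selected cells, 29 of them mesothelial-like, against 5 of 388 in STOP. Slpi, Muc16, Dmkn, Prg4 and Lrp2 were lowest in STOP relative to D19 B, with Slpi at 65.6 against 16580 CPM. Rgs5, Colec11, Spp1, Ifitm1 and Cxcl12 were highest, with Rgs5 at 1032 against 15.9 CPM. No cell of clusters 2, 3 or 4 was in D19 B, so the comparison could not be made within them.

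STOP was therefore set against D25 B, the other protocol B library rich in clusters 2, 3 and 4, a choice made after the data were seen. Over all selected cells, 12 of 13 interferon-stimulated genes were higher in STOP and 1 lower with separate intervals, where 52.7% of 3781 genes with at least 50 CPM had separate intervals, 32.7% higher and 20% lower, and the list's median log2 ratio was 1.78 beside 0.10 for all genes. Isg15, a ubiquitin-like protein induced by interferon, stood at 704 CPM in STOP (interval 681 to 728) and 131 CPM in D25 B (121 to 143). Ifit3, an antiviral gene of the same program, stood at 208 against 20.9 CPM. T cells of the same libraries also had higher levels in STOP for every gene of the 16 but Irf1 (128 against 140 CPM), so the difference was not limited to mesenchymal cells. In these T cells Isg15 was at 116 CPM in STOP and 92.0 CPM in D25 B, Ifit3 at 21.9 and 12.5 CPM, Bst2 at 304 and 180 CPM, Psmb8 at 270 and 65.0 CPM and Iigp1 at 175 and 35.4 CPM. RNA of the lists for other cell types differed as well. Over all selected cells 3 of 4 hepatocyte genes were higher in STOP (median 1.39) and all 5 biliary genes lower (median -2.46). In cluster 3 both neutrophil genes were higher. The biliary list was also high in clusters 4 and 5, of which D25 B held 141 and 45 cells and STOP 55 and 5. The part of RNA from other cell types in the interferon values was not tested.

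The interferon genes were higher in STOP within clusters as well. In cluster 2, 11 of 12 were higher and 0 lower (median 1.5, all genes 0.05, 12.7% of genes higher), and in cluster 3, 11 of 14 were higher and 1 lower (median 1.5, all genes 0.05, 11.8% of genes higher and 8.78% lower). In cluster 4, 3 of 5 were higher and 0 lower, where 32.6% of all genes had separate intervals and 19.3% were higher. In cluster 3, Isg15 stood at 1311 against 460 CPM, Irf7, a transcription factor that drives interferon genes, at 308 against 46.0 CPM, and the antiviral membrane protein Bst2 at 1203 against 389 CPM. Iigp1, an interferon-gamma-induced GTPase, went the other way in cluster 3, with 762 CPM in STOP and 1178 CPM in D25 B. D0 A cells of cluster 3 had the highest Iigp1 of all libraries, 3790 CPM, and Isg15 at 490 CPM. Whether a sample, its handling or the recovery set these levels cannot be told apart, because STOP is 1 library.

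**Figure D5:**
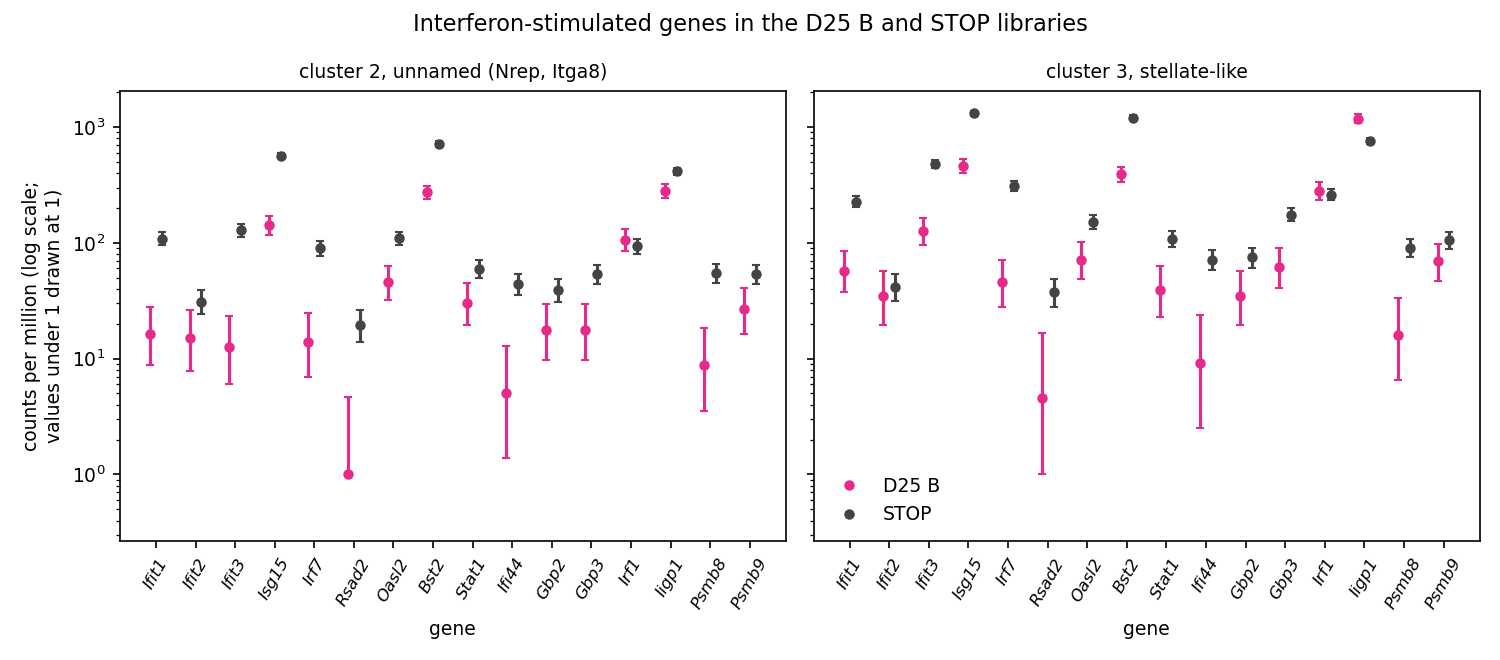
CPM (log scale) of the 16 interferon-stimulated genes in clusters 2 and 3 in the D25 B and STOP libraries, with exact 95% Poisson intervals (values under 1 drawn at 1). STOP lies above D25 B for most genes in both clusters, with Irf1 nearly equal and Iigp1 lower in STOP in cluster 3 (762 against 1178).

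Promoters of 3 of these genes are shown to mark a repeated GAAA pattern, the core letters of the interferon-stimulated response element, in genes that were higher in STOP. The sequences are the 250 bases before the RefSeq gene start in GRCm38.p6, written 5′ to 3′ on the gene's strand. Capitals mark every match, on either strand, to GAAA followed by any 2 bases and then GAAA, with overlapping matches merged. They lie at chr19:34640639-34640888 (plus strand, Ifit1), chr19:34583279-34583528 (plus strand, Ifit3) and chr4:156200819-156201068 (minus strand, Isg15).
Ifit1: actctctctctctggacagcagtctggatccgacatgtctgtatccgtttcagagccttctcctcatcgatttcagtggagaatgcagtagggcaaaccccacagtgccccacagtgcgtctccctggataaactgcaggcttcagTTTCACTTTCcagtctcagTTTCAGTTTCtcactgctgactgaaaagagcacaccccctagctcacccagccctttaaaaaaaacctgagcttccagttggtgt
Ifit3: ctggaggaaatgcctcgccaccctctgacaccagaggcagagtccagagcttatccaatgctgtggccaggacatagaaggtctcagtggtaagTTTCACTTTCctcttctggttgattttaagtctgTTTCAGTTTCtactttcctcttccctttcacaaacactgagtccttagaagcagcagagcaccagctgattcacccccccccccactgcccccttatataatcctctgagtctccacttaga
Isg15: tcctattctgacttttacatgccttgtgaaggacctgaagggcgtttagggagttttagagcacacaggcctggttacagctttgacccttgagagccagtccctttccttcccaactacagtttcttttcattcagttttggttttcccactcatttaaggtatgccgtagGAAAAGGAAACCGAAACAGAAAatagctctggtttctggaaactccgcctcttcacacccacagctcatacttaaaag
Ifit1 and Ifit3 hold 2 matches each and Isg15 holds 3 that overlap. Of the 16 interferon-stimulated genes 14 were in the promoter table, and 7 of those held a match (Ifit1, Ifit3, Isg15, Rsad2, Bst2, Gbp2 and Gbp3), whereas 978 of all 32851 promoters did (2.98%). A match is a description of the letters and not a measured binding site.

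Of 16 genes of the TGF-beta axis, all 16 were lower in STOP over all selected cells (median -0.49), where 20% of all genes were lower. D25 B, the reference, stood apart from the other libraries for this list: its summed level was 6875 CPM, against 4874 CPM in STOP, 4449 CPM in D0 A, 4659 CPM in D5 B and 3571 to 4174 CPM in the other progression libraries. In cluster 2, 8 of 16 were lower and 2 higher, where 12.4% of all genes were lower and 12.7% higher. In cluster 3, 10 of 14 were lower and 0 higher, where 8.78% of all genes were lower, and in cluster 4, 7 of 16 were lower and 1 higher, where 13.2% were lower and 19.3% higher. Immediate early and heat shock genes, which respond to digestion and sorting, were also mostly lower in STOP in cluster 2 (14 of 16, median -0.74) and cluster 3 (11 of 19, median -0.51). In cluster 4, 7 of 16 were lower and 4 higher (median -0.06). Their part in the TGF-beta values was not tested. Ccn2, a matricellular target of TGF-beta, stood at 565 against 841 CPM in cluster 2, 120 against 389 CPM in cluster 3 and 551 against 1069 CPM in cluster 4. The same held for Ccn1, at 866 against 1508 CPM, 733 against 1685 CPM and 1146 against 1648 CPM. Col1a1, a rule gene, was at 9380 and 9555 CPM in cluster 2, 1897 and 2626 CPM in cluster 3 and 10520 and 19520 CPM in cluster 4 in STOP and D25 B. Acta2 was at 1220 and 1343 CPM in cluster 2 and 795 and 862 CPM in cluster 4 with overlapping intervals, and higher in STOP in cluster 3, at 285 against 177 CPM. Of the contractile genes 1 of 10 was higher and 5 lower in cluster 2 (median -0.20), 6 of 9 higher and 2 lower in cluster 3 (median 0.44), and 1 of 9 higher and 4 lower in cluster 4 (median -0.36).

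The metallothionein gene Mt1 and the heme oxygenase gene Hmox1, both chosen after their values were seen, had lower levels in STOP than in D25 B, 1 library against 1. Mt1 stood at 915 CPM in STOP and 3547 CPM in D25 B in cluster 2, at 1902 and 6099 CPM in cluster 3, and at 1370 and 2165 CPM in cluster 4. Hmox1 stood at 48.2 and 263 CPM in cluster 2, at 71.1 and 136 CPM in cluster 3 and at 48.1 and 266 CPM in cluster 4. Among chemokines, Cxcl12, which retains leukocytes and progenitors through Cxcr4, was higher in STOP in clusters 2, 3 and 4 (2717 against 1951, 3231 against 2184 and 1874 against 1227 CPM), whereas Cxcl14 was lower in clusters 2 and 3 (247 against 1376 and 422 against 1392 CPM) and higher in cluster 4 (1995 against 1514 CPM). In cluster 4 the cytokine Il11, which signals to fibroblasts through Il6st, stood at 654 CPM in STOP on 531 UMIs of 55 cells and at 8.67 CPM in D25 B on 17 UMIs of 141 cells. Ccl19 (276 against 17.9 CPM) and Ccl7 (331 against 44.4 CPM) were also higher there, as was Timp1 (1578 against 251 CPM). T cells held Il11 at 0.244 CPM in STOP and 0.232 CPM in D25 B.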

How the data were processed

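Liver cells of DDC-fed and untreated mice were profiled in 13 droplet libraries. The deposited matrices hold unnormalized UMI counts for each barcode, and kallisto and GRCm38 are named in the submitters' processing notes. The members and the gene lists were chosen with earlier results of these data known. Barcodes were filtered by the rule given with the results, and no doublet caller was run. Cells were clustered (1500 variable genes, 20 principal components, 20 neighbours, Leiden resolution 0.8, 268 genes of the lists compared between groups left out, marker lists kept) with scikit-learn 1.9.0 and leidenalg 0.10.2. Counts were summed per library with at least 10 cells and tested with edgeR 4.0.16 (quasi-likelihood, TMM, low counts filtered, stage and protocol as terms, Benjamini-Hochberg threshold 0.05) in R 4.3.3. DESeq2 1.42.0 was an alternative. The fit over all selected cells was also run on simulated data, and the fits within clusters were not. The outcome is not reported here, and the run does not show that the fits find changed genes reliably. CPM leave out CT010467.1 and Mir6236. Named genes were the 20 with the highest ratio to other barcodes, members of the lists, the 5 with the smallest p in each direction where under 5 were called, and the 5 largest ratios in each direction for STOP against D19 B. Other genes are said to be chosen after their values were seen. STOP, 1 library, was compared by exact Poisson intervals (95%). Libraries held 29307190 to 108602421 UMIs, and intervals cover counting error only. Replicates were numbered in accession order and their spread may be technical. Alternatives left out libraries, the protocol term, the low-count filter or cells with other-lineage RNA. Results of some genes are not reported here.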

Additional observations from a re-analysis of the deposited data

Results flagged for a closer look

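In 41 groups of libraries, the gap between the most extreme library and its neighbour was compared with the range of the group. The share of selected cells was examined in the 4 onset libraries and in the 6 progression libraries. All other groups held the 6 progression libraries, so the groups shared libraries and nearly all lay in DDC progression by design. Chance passes this test in about 1 of 20 groups, and 8 groups passed, all in DDC progression. D25 B stood apart from the other 5 progression libraries in 7 of them. It had the highest share of selected cells (5.86%), and the highest summed CPM of the collagens outside the rule (11890), the TGF-beta axis (6875), the adhesion genes (5132) and the cell cycle genes (618.7). It also had the highest shares of cluster 4 (40.3%) and cluster 9 (5.14%) among its selected cells. D9 B, with 15 selected cells, stood apart in the summed CPM of the interferon-stimulated genes (1586).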

How the results depend on the processing

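With cells that held RNA of other lineages left out, edgeR called 12 genes between DDC and steady state and 17 between progression and onset, where the reported count was 0, but that fit held 5 libraries and 4271 genes with 1 residual degree of freedom. Without the protocol term DDC against steady state gave 1 gene. Leaving out 1 library gave 0 to 1 genes for DDC against steady state and 0 to 0 for progression against onset. Within clusters 1, 3 and 5, DESeq2 called 4, 10 and 5 genes and the fit without the protocol term 1, 23 and 1. Cluster 3 gave 13 without CT010467.1 and Mir6236. Leaving out 1 library gave 80 in cluster 1, 103 in cluster 3 and 14 to 115 in cluster 5, and the fits behind 80 and 103 had no protocol term, because the libraries left in cluster 1 were all of protocol A and those in cluster 3 no longer separated protocol from diet. In cluster 1 the library left out was D25 B, its only protocol B library, which the protocol term had fitted alone. That fit could therefore hardly differ from the main one and does not show that the calls are stable. The share of selected cells was 1.83% at 3000 or more UMIs and 1.88% when cells were thinned to 1500 UMIs. Of the shares per library under other rules, 28 stayed within the reported interval and 11 moved out of it. D0 A moved from 3.88% to 5.92% at 3000 UMIs. STOP against D19 B gave 544 separate genes without other-lineage cells and 252 with stellate-list cells only, where D19 B held 7 and 3 cells. Cells left out for RNA of other lineages included those with 3 or more UMIs of the biliary list, which was high in clusters 4 and 5. Such settings could thus also change the mix of clusters. Fam167b changed sign between progression and onset, to a log2 difference of 2.30 at 3000 UMIs, 2.31 at 10 marker UMIs, 2.09 in stellate-list cells and 2.59 without clusters 5, 6 and 8. The causes were not tested. Of the genes named within clusters, 180 values stayed on their side of the threshold and 133 no longer passed. Among named genes of the comparisons of all cells, 321 values stayed on their side and 4 passed newly. The fits with only protocol A for progression against onset, only protocol B or without D0 A for DDC against steady state, without D5 B for progression against onset, without D9 A or D19 A in cluster 1, and without D5 B or D25 B in cluster 3 could not be fitted. No paired analysis was possible because replicate numbers were given in accession order.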
